A study of Mus musculus with 18 samples.

Results

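The mitosis and chromosome segregation genes described here are 44 genes of the machinery that carries a cell from late interphase through division. They were taken from the deposited count table by matching its Ensembl identifiers to gene symbols in GENCODE mouse annotation on GRCm38. All 44 were found, each as 1 row of the 48023 genes in the table, and all 44 passed the filter on low counts that left 15071 genes to test. The cells were an immortalized line of mouse brown preadipocytes, the undifferentiated precursors of brown fat cells. Per the study's methods the line was made with SV40 T antigen, a viral protein that binds p53 and the retinoblastoma protein, both regulators of the cell cycle, and vehicle and FGF6 groups both carry it. Cultures were given vehicle (Veh) or the secreted growth factor FGF6 (200 ng/ml) and collected 4, 8 or 24 h later, which makes 6 groups of 3 sequenced libraries, 18 in all. Nothing in the labels says that the libraries of a group came from separate cultures, so p-values measure only the spread between these libraries, which may be technical. One library stood apart from its group: over the genes tested, the chi-square per degree of freedom between Veh 24 h replicate 3 and the other 2 vehicle libraries of that time was 34.9 and 38.3, against 2.34 to 7.25 for all other pairs within a group. The labels and files used here give no reason for this.

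Mitosis starts when the kinase CDK1, bound to A- and B-type cyclins, phosphorylates its targets, chromosomes condense and a spindle forms. The spindle assembly checkpoint holds the cell until every kinetochore is attached, and then CDC20 activates the anaphase-promoting complex, which destroys securin and the cyclins so that the chromatids part and the cell divides. The genes for this machinery are transcribed late in the cycle. They are kept low in resting cells and early in the cycle by the DREAM complex and raised later by B-MYB and FOXM1, largely through CHR elements and CCAAT boxes near their start sites. Fibroblast growth factors are ligands of receptor tyrosine kinases and many of them are mitogens.

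RefSeq promoter windows on GRCm38.p6, reaching from 250 bases before a transcription start to 50 bases after it, were matched by symbol and held 39 windows for 36 of the 44 members. Aurkb, Ccna2, Cdc25c, Foxm1, Incenp, Kif20a, Smc4 and Tpx2 had no entry. The CHR letters TTTGAA, searched on both strands, were present in 29 of the 39 windows (74.4%), against 17.9% of all 32851 windows and 11.9% of the 13620 windows of genes tested here. The CCAAT box, searched as CCAAT on both strands, was present in 30 of the 39 (76.9%), against 37.4% of all windows and 37.6% of those of genes tested. Both motifs stood together in 66.7% of the members' windows, against 6.95% of all windows. An E2F motif, searched as TTTGGCGC or TTTCGCGC, was found in 1 member window, that of Cdk1 (2.56%, against 0.813% of all). No motif matches overlapped one another in the members' windows. Bub3, Ect2 and Prc1 each have a pair of overlapping windows, and a match describes letters in a window, not a bound site.

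The sequences of 6 windows, written 5′ to 3′, are given because these members mark the extremes of the response: Bub1 rose most at 24 h, Nusap1 fell most at every time, Ccnb2 and Mki67 were among the largest falls, and Cdk1 and Top2a are standard markers of dividing cells. Capitals mark CHR and CCAAT matches on either strand.
Ccnb2, chr9:70421505-70421804, minus strand: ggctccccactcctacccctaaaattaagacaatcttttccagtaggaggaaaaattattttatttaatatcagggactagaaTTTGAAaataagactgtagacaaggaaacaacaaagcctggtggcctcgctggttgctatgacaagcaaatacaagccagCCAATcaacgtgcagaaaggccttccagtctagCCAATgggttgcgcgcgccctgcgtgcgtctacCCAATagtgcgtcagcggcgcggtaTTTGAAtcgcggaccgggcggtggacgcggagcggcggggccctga
Cdk1, chr10:69352863-69353162, minus strand: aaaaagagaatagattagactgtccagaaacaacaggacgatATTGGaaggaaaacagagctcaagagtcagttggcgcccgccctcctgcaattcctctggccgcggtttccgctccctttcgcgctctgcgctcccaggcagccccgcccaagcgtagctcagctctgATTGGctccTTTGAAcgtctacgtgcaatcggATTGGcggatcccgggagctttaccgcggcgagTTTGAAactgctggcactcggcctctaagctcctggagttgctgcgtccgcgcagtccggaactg
Top2a, chr11:99024140-99024439, minus strand: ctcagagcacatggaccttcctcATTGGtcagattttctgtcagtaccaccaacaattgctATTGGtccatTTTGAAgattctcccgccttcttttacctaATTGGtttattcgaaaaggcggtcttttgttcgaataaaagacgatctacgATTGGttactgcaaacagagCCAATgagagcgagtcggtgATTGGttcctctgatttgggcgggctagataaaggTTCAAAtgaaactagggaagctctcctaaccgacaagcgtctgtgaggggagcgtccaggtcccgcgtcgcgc
Mki67, chr7:135716330-135716629, minus strand: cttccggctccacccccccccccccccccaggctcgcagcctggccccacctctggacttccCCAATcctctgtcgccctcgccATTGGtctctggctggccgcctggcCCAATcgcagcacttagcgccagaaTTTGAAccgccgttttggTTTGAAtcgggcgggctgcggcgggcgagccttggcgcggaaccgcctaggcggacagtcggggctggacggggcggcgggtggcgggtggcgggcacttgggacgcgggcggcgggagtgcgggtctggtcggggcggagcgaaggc
Bub1, chr2:127831810-127832109, minus strand: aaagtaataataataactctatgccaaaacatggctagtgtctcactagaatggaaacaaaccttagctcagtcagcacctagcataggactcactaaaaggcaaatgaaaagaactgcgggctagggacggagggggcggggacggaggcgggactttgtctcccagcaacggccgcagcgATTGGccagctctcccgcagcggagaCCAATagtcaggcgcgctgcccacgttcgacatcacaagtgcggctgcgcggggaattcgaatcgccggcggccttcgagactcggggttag
Nusap1, chr2:119618048-119618347, plus strand: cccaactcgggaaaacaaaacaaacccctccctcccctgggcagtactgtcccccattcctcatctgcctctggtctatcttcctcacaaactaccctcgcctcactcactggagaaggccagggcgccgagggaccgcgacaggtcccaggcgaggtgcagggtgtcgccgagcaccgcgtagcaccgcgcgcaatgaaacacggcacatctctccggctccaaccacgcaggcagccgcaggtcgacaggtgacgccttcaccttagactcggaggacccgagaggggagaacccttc
Ccnb2 carried CCAAT boxes starting at -87, -54 and -21 relative to the first transcribed base (+1) and CHR matches at -167 and 5, while the Nusap1 window held neither motif. Among the 36 members with a window, the 26 with the letters TTTGAA had a median log2 fold change with FGF6 of -0.38 at 8 h and 0.44 at 24 h. The 10 without these letters had medians of -0.46 and 0.35. Other spellings of the CHR were not searched, so the 10 may include members that carry one. These medians are a description of the members and carry no test.

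FGF6 first lowered and later raised these genes. At 4 h 41 of the 44 members were called lower with FGF6 (34.2% of all genes tested). At 8 h 38 were lower (38.4% of all genes), and at 24 h 35 were higher (35.9%). The summed level of the 44 members, in CPM (counts scaled to a library total of 1000000), was 5035, 4986 and 5089 in the vehicle libraries at 4 h and 3801, 3729.9 and 3826 with FGF6. At 8 h it was 6858, 6899 and 6971 CPM with vehicle and 5152, 5343 and 5365 CPM with FGF6. At 24 h it was 6719, 6873 and 7029 CPM with vehicle and 8578, 8562 and 8404 CPM with FGF6. The FGF6 libraries therefore lay below all vehicle libraries of the same time at 4 and 8 h and above them at 24 h. CPM here refer to the library total of the tested genes, scaled with TMM factors (the weighted trimmed mean of M values). In RNA from whole cultures, fewer cells in late interphase or mitosis and less of these transcripts per cell cannot be told apart.

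**Figure D1:**
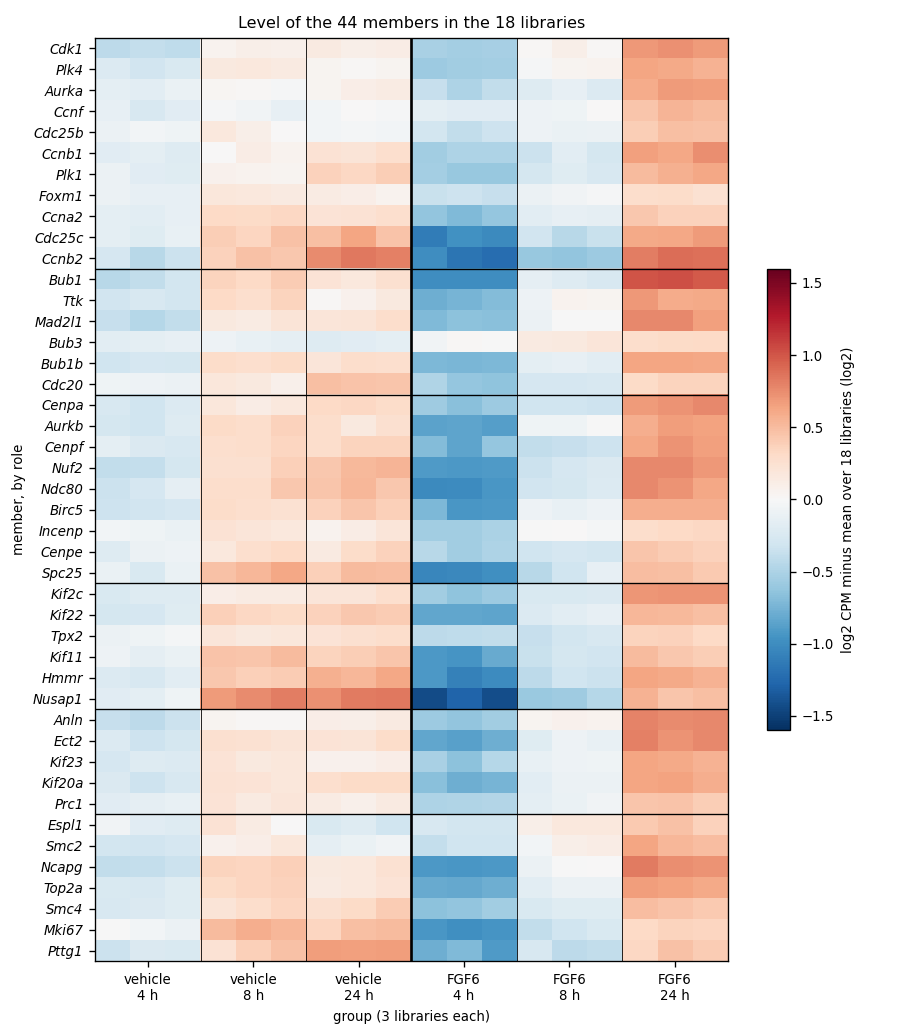
Heat map of the 44 members (vertical axis, grouped by role) in the 18 libraries (horizontal axis, 3 per group), coloured by log2 CPM minus the member's mean over all libraries. FGF6 at 4 h was the lowest of the 6 groups in mean CPM for 42 members, and FGF6 at 24 h was the highest for 38.

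The tests give the size of these shifts. A gene was called when edgeR's quasi-likelihood test gave a Benjamini-Hochberg adjusted p under 0.05 over all 15071 genes. At 4 h, 41 members were called lower, where 34.2% of all genes tested were lower, and 1 was called higher, where 28.6% were higher. The median log2 fold change (FGF6 over vehicle) was -0.46 over the members and -0.05 over all genes tested. At 8 h, 38 members were lower against 38.4% of all genes and 1 was higher against 32.4%, with medians of -0.38 for the members and -0.05 for all genes. At 24 h, 35 members were higher against 35.9% of all genes and 4 were lower against 37.9%, and the medians were 0.33 and -0.02. Without Veh 24 h replicate 3, 35 members were higher and 3 lower at 24 h, with a median of 0.35, and the call lost was that of Mki67. Counted by libraries alone, the FGF6 values lay below every vehicle value for 42 members at 4 h (36.1% of all genes) and 38 at 8 h (39.6%), and above every vehicle value for 34 members at 24 h (36.7%). In the other direction, 1 member at 4 h (30.1% of all genes), 1 at 8 h (34.2%) and 3 at 24 h (38.1%) were fully separated. Most changes were under 1.5-fold: with that size required as well, 10 members were called lower at 4 h, 10 lower at 8 h, and 4 higher at 24 h. The share of all genes called at that size was not counted.

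**Figure D2:**
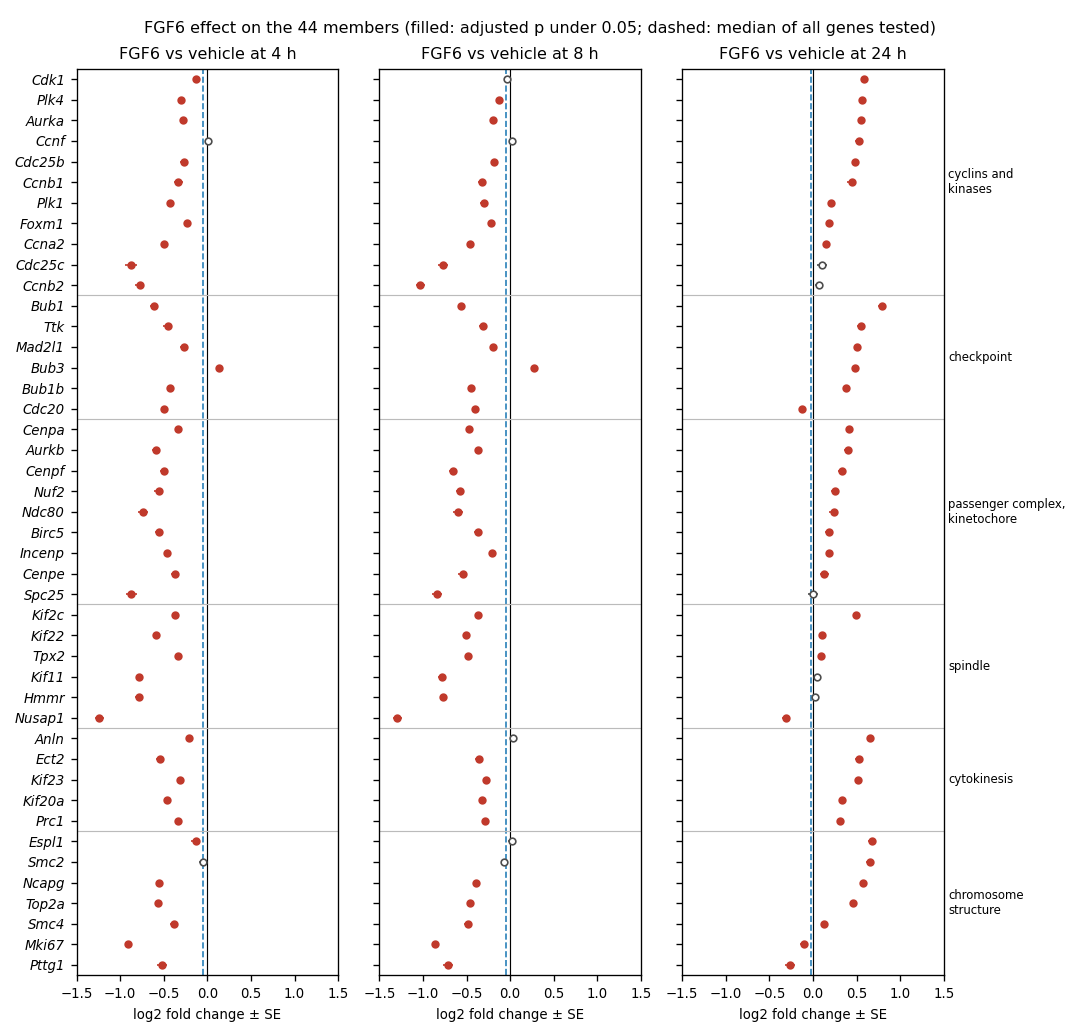
Log2 fold change of FGF6 over vehicle (horizontal axis, ± SE) for the 44 members (vertical axis, grouped by role and ordered by the 24 h value) at each time. Filled points passed an adjusted p of 0.05, and the dashed line is the median of all genes tested. Most members sit left of 0 at 4 and 8 h and right of 0 at 24 h.

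A change of the FGF6 effect itself from one time to the next was tested by the difference of the contrasts in the same model. From 8 to 24 h the effect moved upward in all 44 members (22.6% of all genes tested moved upward and 22.5% downward), with a median shift of 0.73 on the log2 scale against 0.00 over all genes. DESeq2 and limma with voom gave the same count of 44, as did edgeR without Veh 24 h replicate 3. The shift was largest for Bub1 (1.35 ± 0.057, edgeR adjusted p = 5.61e-16) and Ccnb2 (1.10 ± 0.067, edgeR adjusted p = 1.09e-12), and smallest for Bub3 (0.21 ± 0.043, edgeR adjusted p = 0.000284) and Cdc20 (0.28 ± 0.051, edgeR adjusted p = 5.23e-05). From 4 to 8 h the effect moved upward in 9 members (15.5% of all genes) and downward in 4 (15.1% of all genes), with a median shift of 0.05. The 4 were Ccnb2, Cenpa, Cenpe and Tpx2, and the count was 2 when any 1 of Veh 4 h replicate 2, Veh 8 h replicate 3, FGF6 4 h replicate 1 or FGF6 8 h replicates 1, 2 and 3 was left out. These comparisons share their vehicle and FGF6 libraries with the comparisons at single times, so they are not further evidence for them.

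Levels also moved with time in each arm. In vehicle-treated cells, 43 members rose from 4 to 8 h (21.2% of all genes rose and 21.7% fell), with a median log2 change of 0.49, and the remaining member, Bub3, changed by 0.04. From 8 to 24 h the vehicle level changed little, with a median of 0.04: 13 members rose (25.5% of all genes) and 10 fell (23.7%). That split depends on scaling, since with library size alone 5 rose and 19 fell, and on 1 library, since without Veh 24 h replicate 3 it was 10 and 14 with a median of 0.0049. In FGF6-treated cells all 44 members rose from 4 to 8 h (24.1% of all genes rose and 24.0% fell) with a median of 0.55, and all 44 rose again from 8 to 24 h (31.1% rose and 31.2% fell) with a median of 0.73. DESeq2 and limma with voom also called 44 in both steps. The summed FGF6 level at 8 h lay just above the vehicle level at 4 h. From 8 to 24 h the summed vehicle level stayed in an overlapping range, while every FGF6 library at 24 h was above every FGF6 library at 8 h.

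Library totals ran from 24327816 to 33471980 counts and TMM factors from 0.951 to 1.05, and a member's count in a single library ran from 203 (Cdc25c) to 21856 (Top2a). Of 7 preadipocyte and stromal markers, Pdgfra, Pdgfrb, Ly6a, Col1a1 and Thy1 each had at least 793 counts in every library, Cd34 at least 282, and Dlk1 had 0. Their summed level, most of it from Col1a1 in the vehicle libraries, was lower with FGF6 at each time, at 2042 to 2172 CPM against 3263 to 3508 at 4 h, 2298 to 2499 against 4578 to 4867 at 8 h, and 781 to 836 against 4279 to 4605 at 24 h. Of the 6 tested, 5 were called lower at each time, while Cd34 had log2 fold changes of -0.11, 0.46 and 1.38 and was called higher at 8 and 24 h. The 5 mature adipocyte markers summed to 89.1 to 97.7 CPM with FGF6 against 102 to 107 with vehicle at 4 h, 68.4 to 72.6 against 96.4 to 99.4 at 8 h, and 63.4 to 70.1 against 156 to 178 at 24 h, with Lep at 0 counts. Most of each sum came from Fabp4, since Adipoq, Plin1 and Cidec reached at most 0.701, 1.95 and 4.66 CPM in any library. Of the 4 adipocyte markers tested, 2 were called lower at 4 h and 4 at 8 and at 24 h. The 5 macrophage and leukocyte markers summed to 17.6 to 18.5 CPM with FGF6 against 14.2 to 15.2 with vehicle at 4 h, 10.6 to 11.1 against 10.7 to 12.2 at 8 h, and 3.36 to 3.97 against 6.48 to 7.95 at 24 h, with Ptprc, Adgre1 and Itgam at no more than 3 counts in any library. Cd68 reached 16.7 CPM and Csf1r 4.15 CPM. The 2 tested were split at 4 h, with 1 called higher (log2 fold change 0.58) and 1 lower (-1.38). At 8 h they were split again (0.26 and -1.8), and at 24 h 2 were called lower. The summed level of the 4 endothelial markers was higher in every FGF6 library than in the vehicle libraries of the same time, at 1.96 to 2.49 CPM against 0.908 to 1.67 at 4 h, 2.28 to 3.57 against 0.377 to 0.947 at 8 h, and 3.71 to 5.65 against 0.965 to 1.3 at 24 h. These sums rest on few counts, at most 7 for Pecam1, 9 for Tek, 57 for Kdr and 114 for Cdh5 in any library. Cdh5 alone reached 4.16 CPM. Only Cdh5 and Kdr were tested, both were called higher at 4 and 8 h and Cdh5 alone at 24 h, while Tek had fewer counts with FGF6 at 4 and 24 h and Pecam1 overlapped between the groups at 4 h. The summed level of the 4 skeletal muscle markers was lower in every FGF6 library, at 3.92 to 4.75 CPM against 7.78 to 8.99 at 4 h, 3.8 to 4.73 against 6.28 to 8.93 at 8 h, and 1.6 to 2.13 against 5.85 to 6.77 at 24 h. Of the 3 tested, Myog was called lower at each time, Myod1 at 4 and 24 h and Des at 24 h. The part of these marker shifts in the results for the mitotic genes was not tested.

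Cyclins, mitotic kinases and their activators form the first group, with 11 members. In this group 10 fell at 4 h (34.2% of all genes tested) and 9 at 8 h (38.4%), and 9 rose at 24 h (35.9%). The median log2 fold changes were -0.31, -0.22 and 0.44. Cdk1 (ENSMUSG00000019942, chr10:69335146-69352938, minus strand) encodes the kinase that drives entry into mitosis. Its level in vehicle libraries was 235, 241 and 238 CPM at 4 h, 327, 335 and 332 CPM at 8 h, and 347, 336 and 341 CPM at 24 h. With FGF6 it was 219.8, 215 and 217 CPM at 4 h, 318, 334 and 318 CPM at 8 h, and 510.2, 520.3 and 505 CPM at 24 h. The groups were separate at 4 and 24 h and overlapped at 8 h. Log2 fold changes of Cdk1 were -0.13 ± 0.030 (SE) at 4 h, -0.04 ± 0.029 at 8 h and 0.58 ± 0.029 at 24 h, with edgeR adjusted p-values of 0.000487, 0.288 and 1.9e-15. Under library size alone and upper-quartile factors Cdk1 was also called lower at 8 h (-0.099 and -0.080).

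Ccna2 (ENSMUSG00000027715, chr3:36564865-36572150, minus strand) encodes cyclin A2, which partners CDK2 in S phase and CDK1 in G2. The vehicle libraries held 224, 222 and 229 CPM at 4 h, 312, 310.3 and 314 CPM at 8 h, and 292, 293 and 300.1 CPM at 24 h. FGF6 libraries held 161, 153 and 163 CPM at 4 h, 222, 229 and 227 CPM at 8 h, and 338, 322 and 323 CPM at 24 h. At each time the groups were separate, with FGF6 below vehicle at 4 and 8 h and above it at 24 h. The log2 fold changes were -0.50 ± 0.032 (SE) at 4 h, -0.47 ± 0.031 at 8 h and 0.15 ± 0.031 at 24 h, with edgeR adjusted p-values of 5.04e-13, 9.98e-13 and 0.000114. Its exons share 510 bases with Exosc9 on the other strand, and the strand setting of the counting is not given in the sources used here.

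Ccnb1 (ENSMUSG00000041431, chr13:100778650-100786570, minus strand), cyclin B1, is the main partner of CDK1 at mitotic entry. It was at 34.6, 35.4 and 34.05 CPM at 4 h, 39.6, 42.8 and 41.0 CPM at 8 h, and 46.3, 45.4 and 47.4 CPM at 24 h with vehicle. FGF6 gave 26.8, 27.9 and 27.9 CPM at 4 h, 31.1, 35.1 and 32.3 CPM at 8 h, and 62.0, 60.8 and 66.0 CPM at 24 h. No overlap between the groups was seen at any time. Its log2 fold changes were -0.33 ± 0.050 (SE) at 4 h, -0.32 ± 0.049 at 8 h and 0.44 ± 0.046 at 24 h, with edgeR adjusted p-values of 2.6e-06, 1.75e-06 and 3.66e-09. The pseudogene Ccnb1-ps had at most 3 counts in any library.

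Ccnb2 (ENSMUSG00000032218, chr9:70407692-70421547, minus strand) encodes cyclin B2, a further partner of CDK1. Vehicle libraries stood at 53.7, 47.8 and 51.1 CPM at 4 h, 84.1, 89.5 and 87.8 CPM at 8 h, and 109, 116 and 113 CPM at 24 h. FGF6 libraries stood at 32.6, 28.7 and 27.8 CPM at 4 h, 42.6, 41.9 and 43.3 CPM at 8 h, and 114, 121 and 119 CPM at 24 h. The FGF6 values were far below vehicle at 4 and 8 h, and the groups overlapped at 24 h. Ccnb2 log2 fold changes were -0.77 ± 0.053 (SE) at 4 h, -1.03 ± 0.049 at 8 h and 0.06 ± 0.046 at 24 h, with edgeR adjusted p-values of 2.1e-12, 1.02e-15 and 0.211. Its fall at 8 h was the second largest of the 44 members, and from 8 to 24 h it rose more in FGF6-treated cells (1.47) than any other member. Ccnb2-ps, a pseudogene, held 21 to 53 counts per library.

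Plk1 (ENSMUSG00000030867, chr7:122159439-122169873, plus strand), polo-like kinase 1, acts in centrosome maturation and mitotic entry. It was measured at 70.5, 66.2 and 65.6 CPM at 4 h, 79.0, 78.3 and 77.2 CPM at 8 h, and 96.8, 94.3 and 98.5 CPM at 24 h in vehicle libraries. In FGF6 libraries it was at 51.5, 49.4 and 49.4 CPM at 4 h, 61.6, 65.5 and 62.9 CPM at 8 h, and 107, 112 and 115 CPM at 24 h. Groups were separate at all times, with FGF6 below vehicle at 4 and 8 h and above it at 24 h. Plk1 had log2 fold changes of -0.43 ± 0.040 (SE) at 4 h, -0.30 ± 0.039 at 8 h and 0.21 ± 0.038 at 24 h, with edgeR adjusted p-values of 9.09e-10, 1.63e-07 and 2.38e-05.

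Foxm1 (ENSMUSG00000001517, chr6:128362967-128376146, plus strand) encodes the transcription factor that activates many genes of this set in G2. With vehicle it was at 132, 128 and 128 CPM at 4 h, 159.7, 159 and 156 CPM at 8 h, and 154, 151 and 146 CPM at 24 h. With FGF6 its values were 110.2, 112 and 109 CPM at 4 h, 132, 136 and 139 CPM at 8 h, and 171, 173 and 167 CPM at 24 h. Again the groups did not overlap, and the shifts were smaller than for most members. For Foxm1 the log2 fold changes were -0.23 ± 0.031 (SE) at 4 h, -0.22 ± 0.031 at 8 h and 0.18 ± 0.031 at 24 h, with edgeR adjusted p-values of 5.04e-07, 6.71e-07 and 1.21e-05.

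**Figure D3:**
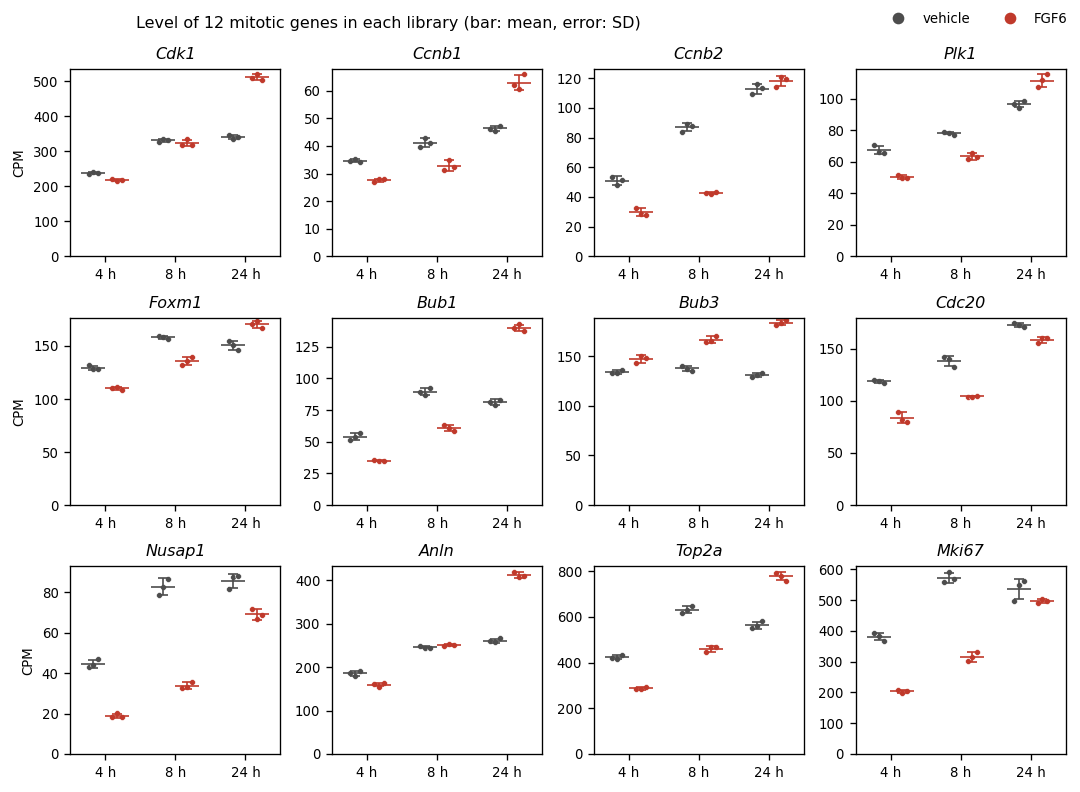
CPM (vertical axis, from 0) of 12 members in each library by time (horizontal axis), with vehicle in grey and FGF6 in red, 3 libraries per group, long bars for means and error bars for SD. Bub3 is above vehicle at every time, Nusap1 and Cdc20 are below vehicle at every time, and Ccnb2 and Mki67 overlap with vehicle only at 24 h.

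The other 5 members of this group were the CDK-activating phosphatases Cdc25b and Cdc25c, the centriole duplication kinase Plk4, the spindle pole kinase Aurka, and Ccnf, the cyclin F subunit of an SCF ubiquitin ligase. At 4, 8 and 24 h the log2 fold changes were -0.27, -0.18 and 0.48 for Cdc25b, -0.31, -0.13 and 0.56 for Plk4 and -0.28, -0.19 and 0.56 for Aurka, all called at each time. Cdc25c gave -0.87, -0.77 and 0.11, with the last not called (edgeR adjusted p = 0.107). Ccnf had 0.01, 0.02 and 0.52 and was called at 24 h only among the comparisons of FGF6 with vehicle, with its 4 and 8 h values changing sign under library size alone, where the 4 h value was called lower (-0.089, edgeR adjusted p = 0.0452).

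The spindle assembly checkpoint genes and their target Cdc20 numbered 6, of which 5 fell and 1 rose at 4 and at 8 h, and 5 rose and 1 fell at 24 h. Of all genes tested, 34.2% fell and 28.6% rose at 4 h, and 38.4% fell and 32.4% rose at 8 h. The shares at 24 h were 35.9% higher and 37.9% lower. Bub3 (ENSMUSG00000066979, chr7:131560222-131571895, plus strand) encodes a WD-repeat protein that recruits BUB1 and BUBR1 to kinetochores. Vehicle libraries had 133, 133 and 136 CPM at 4 h, 141, 138 and 135 CPM at 8 h, and 129, 131 and 133 CPM at 24 h. FGF6 libraries had 143, 150.5 and 148 CPM at 4 h, 164, 165 and 170.4 CPM at 8 h, and 181, 184 and 186 CPM at 24 h. Bub3 was the only member above vehicle in every library at all times, and its vehicle level was not called changed from one time to the next. Its log2 fold changes were 0.13 ± 0.031 (SE) at 4 h, 0.28 ± 0.031 at 8 h and 0.48 ± 0.031 at 24 h, with edgeR adjusted p-values of 0.000581, 1.33e-08 and 2.15e-13. The 4 h value was 0.030 and not called with library size alone, which lowered the median fold change of all genes by 0.101 at 4 h.

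Bub1 (ENSMUSG00000027379, chr2:127801122-127831865, minus strand) encodes the checkpoint kinase that marks centromeric chromatin and scaffolds the checkpoint. It was found at 51.4, 53.4 and 57.1 CPM at 4 h, 89.2, 87.3 and 92.4 CPM at 8 h, and 81.3, 78.8 and 83.3 CPM at 24 h with vehicle. FGF6-treated cells had 35.2, 35.1 and 35.2 CPM at 4 h, 63.3, 60.6 and 58.4 CPM at 8 h, and 140.0, 143 and 138 CPM at 24 h. The groups were apart at each time and reversed in order between 8 and 24 h. Bub1 log2 fold changes were -0.62 ± 0.044 (SE) at 4 h, -0.56 ± 0.041 at 8 h and 0.79 ± 0.039 at 24 h, with edgeR adjusted p-values of 4.51e-12, 4.55e-12 and 1.72e-15. Its increase at 24 h was the largest among the members.

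Cdc20 (ENSMUSG00000006398, chr4:118432901-118437352, minus strand) encodes the activator of the anaphase-promoting complex that the checkpoint restrains. Values in vehicle libraries were 119.9, 119 and 117 CPM at 4 h, 142, 140.1 and 133 CPM at 8 h, and 175, 173 and 170.5 CPM at 24 h. Those in FGF6 libraries were 89.7, 82.0 and 80.2 CPM at 4 h, 104, 104 and 105 CPM at 8 h, and 155, 160.2 and 160.5 CPM at 24 h. FGF6 values lay below vehicle throughout, and by least at 24 h. The log2 fold changes of Cdc20 were -0.50 ± 0.037 (SE) at 4 h, -0.41 ± 0.036 at 8 h and -0.12 ± 0.035 at 24 h, with edgeR adjusted p-values of 1e-11, 2.44e-10 and 0.00334. Among the other checkpoint genes, the pseudokinase Bub1b (BUBR1) gave -0.43, -0.45 and 0.38 at 4, 8 and 24 h, Mad2l1, which binds CDC20, gave -0.27, -0.20 and 0.50, and the kinase Ttk (MPS1) gave -0.45, -0.31 and 0.55, each called at all times.

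Chromosomal passenger complex and kinetochore genes, 9 in number, all fell at 4 h (34.2% of all genes tested) and 8 h (38.4%), and 8 rose at 24 h (35.9%). Their medians were -0.55, -0.55 and 0.24. Cenpe (ENSMUSG00000045328, chr3:135212537-135273611, plus strand) encodes a kinesin that carries chromosomes to the spindle equator. Its vehicle values were 134, 145 and 146 CPM at 4 h, 174, 186 and 193 CPM at 8 h, and 172, 189.7 and 199.6 CPM at 24 h. FGF6 values were 114, 105 and 109.7 CPM at 4 h, 124, 129 and 126 CPM at 8 h, and 210.1, 205 and 199 CPM at 24 h. FGF6 was lower than vehicle in all libraries at 4 and 8 h, and the groups overlapped at 24 h. Cenpe log2 fold changes were -0.37 ± 0.048 (SE) at 4 h, -0.55 ± 0.047 at 8 h and 0.13 ± 0.047 at 24 h, with edgeR adjusted p-values of 2.46e-07, 1.43e-10 and 0.0135. The call at 24 h was lost without Veh 24 h replicate 1 (0.074, edgeR adjusted p = 0.143).

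Incenp (ENSMUSG00000024660, chr19:9872296-9899551, minus strand) encodes the scaffold that activates Aurora B and places it at centromeres. Vehicle gave 133, 131 and 128 CPM at 4 h, 161, 157 and 155 CPM at 8 h, and 143, 150.0 and 158 CPM at 24 h. FGF6 gave 93.7, 93.5 and 96.9 CPM at 4 h, 137, 138 and 135 CPM at 8 h, and 167, 172 and 173 CPM at 24 h. The groups did not overlap, and the deficit at 8 h was smaller than at 4 h. Log2 fold changes for Incenp were -0.46 ± 0.035 (SE) at 4 h, -0.21 ± 0.034 at 8 h and 0.18 ± 0.034 at 24 h, with edgeR adjusted p-values of 1.42e-11, 6.97e-06 and 3.18e-05, and the difference between the 4 and 8 h effects was 0.26 ± 0.049 (edgeR adjusted p = 0.000224), the largest upward shift of any member over that step.

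Within the same complex, the kinase Aurkb gave -0.59, -0.37 and 0.40 at 4, 8 and 24 h and Birc5 (survivin) gave -0.55, -0.37 and 0.18. The centromeric histone Cenpa gave -0.34, -0.48 and 0.41, and Cenpf, a large protein of the outer kinetochore and nuclear matrix, gave -0.50, -0.66 and 0.33. Of the NDC80 complex, which binds microtubules, Ndc80 gave -0.74, -0.60 and 0.24, Nuf2 gave -0.56, -0.58 and 0.25 and Spc25 gave -0.87, -0.84 and 0.01. These 7 were called at each time except Spc25 at 24 h (edgeR adjusted p = 0.935). The Spc25 value at 24 h was near 0 and changed sign in 5 alternative settings.

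Spindle motors and spindle proteins showed the deepest early falls of the 6 groups, with medians over 6 members of -0.68 at 4 h and -0.64 at 8 h, and a median of 0.07 at 24 h. All 6 fell at 4 h (34.2% of all genes tested) and 8 h (38.4%), while at 24 h 3 rose (35.9%) and 1 fell (37.9%). Tpx2 (ENSMUSG00000027469, chr2:152847964-152895321, plus strand) encodes the protein that activates Aurora A and nucleates spindle microtubules. The vehicle libraries read 239, 245 and 251 CPM at 4 h, 292, 286 and 290.2 CPM at 8 h, and 299, 307 and 312 CPM at 24 h. The FGF6 libraries read 191, 194 and 196 CPM at 4 h, 198, 209 and 214 CPM at 8 h, and 327, 330.1 and 320.3 CPM at 24 h. Groups were separate at each time, narrowly at 24 h. Tpx2 had log2 fold changes of -0.34 ± 0.032 (SE) at 4 h, -0.48 ± 0.032 at 8 h and 0.09 ± 0.032 at 24 h, with edgeR adjusted p-values of 1.36e-09, 9.55e-13 and 0.0126. Its 24 h call was lost without Veh 24 h replicate 1 (0.075, edgeR adjusted p = 0.0576) and without a filter on low counts (0.084, edgeR adjusted p = 0.0574).

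Kif11 (ENSMUSG00000012443, chr19:37376403-37421859, plus strand), the kinesin Eg5, slides spindle poles apart. In vehicle libraries its values were 135, 129 and 132 CPM at 4 h, 195, 194 and 203 CPM at 8 h, and 182, 187 and 194 CPM at 24 h. Under FGF6 they were 74.9, 74.2 and 81.6 CPM at 4 h, 111, 117 and 115 CPM at 8 h, and 202, 191 and 187 CPM at 24 h. FGF6 was well below vehicle at 4 and 8 h, and the groups overlapped at 24 h. The Kif11 log2 fold changes were -0.78 ± 0.040 (SE) at 4 h, -0.78 ± 0.039 at 8 h and 0.04 ± 0.038 at 24 h, with edgeR adjusted p-values of 7.29e-15, 1.94e-15 and 0.322.

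Nusap1 (ENSMUSG00000027306, chr2:119618298-119651244, plus strand) encodes a microtubule-bundling protein of the spindle. Levels with vehicle were 43.2, 43.9 and 46.8 CPM at 4 h, 78.7, 82.8 and 86.8 CPM at 8 h, and 81.7, 87.5 and 88.0 CPM at 24 h. Levels with FGF6 were 18.1, 20.1 and 18.4 CPM at 4 h, 32.6, 33.01 and 35.8 CPM at 8 h, and 71.9, 66.6 and 68.6 CPM at 24 h. It was below vehicle in every FGF6 library at each time, with the gap widest at 8 h and narrowest at 24 h. Log2 fold changes of Nusap1 were -1.24 ± 0.057 (SE) at 4 h, -1.29 ± 0.051 at 8 h and -0.31 ± 0.049 at 24 h, with edgeR adjusted p-values of 8.15e-16, 2.41e-17 and 2.83e-06. These were the lowest log2 fold changes of any member at each time. Nusap1 shares 172 exonic bases with Oip5 on the other strand. Of the remaining motors and spindle proteins, the microtubule depolymerase Kif2c gave -0.37, -0.37 and 0.50, the chromokinesin Kif22 gave -0.58, -0.51 and 0.10 and the hyaluronan-mediated motility receptor Hmmr, which acts at spindle poles, gave -0.78, -0.77 and 0.03. Hmmr was not called at 24 h (edgeR adjusted p = 0.557), and the 24 h call of Kif22 was lost without Veh 24 h replicate 1 (edgeR adjusted p = 0.0539) and without a filter on low counts (0.0722).

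Cytokinesis genes, which build the midzone and the contractile ring, numbered 5. All 5 fell at 4 h (34.2% of all genes tested), 4 fell at 8 h (38.4%), and all 5 rose at 24 h (35.9%). Their medians were -0.33, -0.29 and 0.52. Anln (ENSMUSG00000036777, chr9:22332012-22389188, minus strand) encodes anillin, which links actin, myosin and septins at the cleavage furrow. It stood at 186, 180.3 and 190.3 CPM at 4 h, 248, 244 and 245 CPM at 8 h, and 259, 257 and 266 CPM at 24 h with vehicle. Its FGF6 values were 161, 155 and 164 CPM at 4 h, 248, 254 and 250.02 CPM at 8 h, and 419, 408 and 410.0 CPM at 24 h. FGF6 was lower at 4 h, overlapped vehicle at 8 h and was much higher at 24 h. Anln log2 fold changes were -0.22 ± 0.031 (SE) at 4 h, 0.03 ± 0.030 at 8 h and 0.66 ± 0.030 at 24 h, with edgeR adjusted p-values of 1.06e-06, 0.412 and 3.05e-16. DESeq2 also called it higher at 8 h (0.066, DESeq2 adjusted p = 0.0368).

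Kif20a (ENSMUSG00000003779, chr18:34624613-34633277, plus strand) encodes the midzone kinesin MKLP2. Vehicle-treated cells had 108, 101 and 106 CPM at 4 h, 149, 147 and 144 CPM at 8 h, and 152, 156 and 157 CPM at 24 h. Those with FGF6 had 79.5, 73.4 and 75.6 CPM at 4 h, 113, 119 and 119 CPM at 8 h, and 196, 198 and 190.2 CPM at 24 h. No library of one group reached the range of the other at any time. For Kif20a the log2 fold changes were -0.46 ± 0.036 (SE) at 4 h, -0.33 ± 0.035 at 8 h and 0.33 ± 0.034 at 24 h, with edgeR adjusted p-values of 3.35e-11, 6.91e-09 and 4.04e-09. It shares 1271 of 4338 exonic bases with Cdc23 on the other strand, so part of its count is uncertain. Kif23, the centralspindlin motor, gave -0.31, -0.28 and 0.52 at 4, 8 and 24 h. The microtubule bundler Prc1 gave -0.33, -0.29 and 0.31, and Ect2, the exchange factor that activates RhoA at the furrow, gave -0.55, -0.36 and 0.52. All of these passed the test at each time.

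Chromosome structure and separation genes numbered 7, with medians of -0.52 at 4 h, -0.46 at 8 h and 0.46 at 24 h. In this group 6 fell at 4 h (34.2% of all genes tested) and 5 at 8 h (38.4%), and at 24 h 5 rose (35.9%) and 2 fell (37.9%). Top2a (ENSMUSG00000020914, chr11:98992943-99024189, minus strand) encodes topoisomerase II alpha, which decatenates sister chromatids. Vehicle libraries showed 421, 416 and 435 CPM at 4 h, 617, 632 and 647 CPM at 8 h, and 551, 559 and 582 CPM at 24 h. FGF6 libraries showed 286, 282 and 292 CPM at 4 h, 445, 467 and 466 CPM at 8 h, and 794, 781 and 759 CPM at 24 h. The groups were separate at every time, with FGF6 below vehicle at 4 and 8 h and above it at 24 h. Top2a log2 fold changes were -0.56 ± 0.031 (SE) at 4 h, -0.46 ± 0.031 at 8 h and 0.46 ± 0.031 at 24 h, with edgeR adjusted p-values of 3.93e-14, 1.17e-12 and 7.09e-13.

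Mki67 (ENSMUSG00000031004, chr7:135689784-135716361, minus strand) encodes Ki-67, the coat protein of mitotic chromosomes used to mark proliferating cells. With vehicle it was measured at 393, 382 and 369 CPM at 4 h, 559, 590.3 and 569.7 CPM at 8 h, and 498, 549 and 561 CPM at 24 h. With FGF6 it was measured at 207, 199 and 205 CPM at 4 h, 301, 315 and 332 CPM at 8 h, and 491, 505 and 499 CPM at 24 h. FGF6 values were far below vehicle at 4 and 8 h and inside the vehicle range, or just under it, at 24 h. Log2 fold changes of Mki67 were -0.91 ± 0.041 (SE) at 4 h, -0.86 ± 0.041 at 8 h and -0.11 ± 0.040 at 24 h, with edgeR adjusted p-values of 5.83e-16, 7.46e-16 and 0.0211. The 24 h call was lost when any 1 library of that time other than Veh 24 h replicate 1 was left out (-0.061 to -0.10), with median-of-ratios factors (-0.086, edgeR adjusted p = 0.0554) and in a fit to the 24 h libraries alone (-0.091, edgeR adjusted p = 0.0504).

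Pttg1 (ENSMUSG00000020415, chr11:43420250-43426251, minus strand) encodes securin, the inhibitor of separase. It stood at 42.7, 46.4 and 46.0 CPM at 4 h, 64.1, 70.9 and 75.4 CPM at 8 h, and 86.8, 86.1 and 86.4 CPM at 24 h in vehicle libraries. FGF6 libraries were at 31.6, 33.3 and 29.1 CPM at 4 h, 45.7, 40.8 and 41.3 CPM at 8 h, and 68.4, 75.3 and 72.3 CPM at 24 h. Every FGF6 library was below the vehicle libraries of its time. Its log2 fold changes came to -0.52 ± 0.061 (SE) at 4 h, -0.72 ± 0.058 at 8 h and -0.26 ± 0.055 at 24 h, with edgeR adjusted p-values of 5.15e-08, 3.7e-11 and 0.000153.

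Espl1 (ENSMUSG00000058290, chr15:102296266-102324357, plus strand) encodes separase, the protease that cuts cohesin and that securin inhibits. Vehicle samples gave 114, 104 and 103 CPM at 4 h, 138, 129 and 119 CPM at 8 h, and 99.3, 102 and 94.9 CPM at 24 h. FGF6 samples gave 98.7, 96.5 and 96.4 CPM at 4 h, 126, 133 and 132 CPM at 8 h, and 157, 164 and 153 CPM at 24 h. The groups were separate at 4 h by little, overlapped at 8 h and were separate at 24 h. Espl1 log2 fold changes were -0.14 ± 0.047 (SE) at 4 h, 0.02 ± 0.046 at 8 h and 0.67 ± 0.046 at 24 h, with edgeR adjusted p-values of 0.0143, 0.743 and 1.25e-12. At 24 h the transcript of separase was higher with FGF6 and that of its inhibitor securin was lower. Protein was not measured in these libraries. The 4 h call of Espl1 was lost without Veh 4 h replicate 1 or without any 1 FGF6 library of that time (-0.089 to -0.11), and in a fit to the 4 h libraries alone (-0.095, edgeR adjusted p = 0.0655). The condensin subunits gave -0.05, -0.07 and 0.65 for Smc2 at 4, 8 and 24 h, -0.39, -0.49 and 0.13 for Smc4 and -0.55, -0.39 and 0.58 for Ncapg. Smc2 was not called at 4 and 8 h (edgeR adjusted p = 0.318 and 0.162), although it was called lower at both times with library size alone.

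Across the 3 times, 29 members were lower at 4 and 8 h and higher at 24 h. Cdk1, Anln and Espl1 were lower at 4 h, not called at 8 h and higher at 24 h, and Ccnf and Smc2 were called at 24 h only. Ccnb2, Cdc25c, Hmmr, Kif11 and Spc25 were lower at 4 and 8 h and not called at 24 h. Cdc20, Mki67, Nusap1 and Pttg1 were lower at each time, and Bub3 was higher at each time. How many of all genes tested followed these patterns was not counted. Per kilobase of exon, the mean level over the 18 libraries was highest for Smc4 (77.4 CPM per kb), Cdc20 (69.3) and Cdk1 (66.3) and lowest for Cdc25c (3.66). Exons of Ncapg share 944 bases with Lcorl, those of Prc1 911 with Rccd1 and those of Cdc25c 623 with Gm3550, each on the other strand, while Foxm1 shares 241 with Tex52 and Gm44596 on its own strand, so the counts of these members are uncertain to that extent.

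Other mitosis genes and the neighbouring phases of the cycle were compared by counts. Of 120 further mitosis genes outside the 44, 119 were tested. At 4 h 87 fell and 17 rose, at 8 h 82 fell and 18 rose, and at 24 h 73 rose and 28 fell, with medians of -0.29, -0.24 and 0.21. Their effect moved upward from 8 to 24 h in 96 and downward in 2, by a median of 0.43, against 0.73 for the 44 members. Without Veh 24 h replicate 3, 73 rose and 22 fell at 24 h. Of the 31 further motors, spindle and cytokinesis genes, 26 fell and 2 rose at 4 h, and 21 rose and 7 fell at 24 h. Of the 32 further kinetochore genes, 28 fell and 1 rose at 4 h, and 21 rose and 5 fell at 24 h. Genes that control entry into mitosis were split at each time, with 7 of 19 higher and 8 lower at 4 h and again at 8 h, and 11 higher and 8 lower at 24 h. In the kinetochore list, Spc24, the partner of Spc25, had log2 fold changes of -0.92, -1.21 and -0.58. Of 18 genes of the anaphase-promoting complex and its partners, 12 fell and 2 rose at 4 h, and 9 rose and 6 fell at 24 h with a median of 0.067, and its inhibitor Fbxo5 (EMI1) gave -0.13, 0.20 and 0.83. Over all genes tested, 34.2% fell and 28.6% rose at 4 h, and 38.4% fell and 32.4% rose at 8 h. At 24 h 35.9% rose and 37.9% fell. The counts for genes that control entry into mitosis were near these shares at 4 and 8 h.

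**Figure D4:**
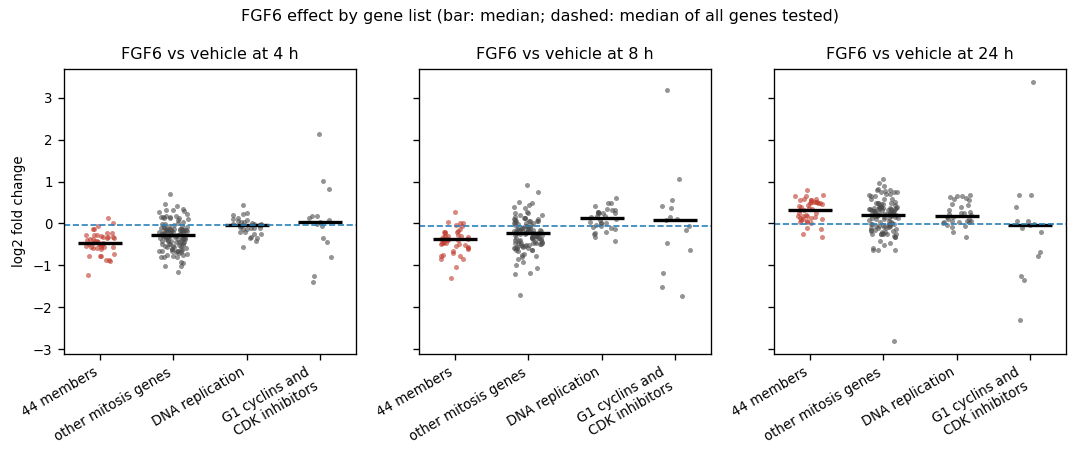
Log2 fold change of FGF6 over vehicle (vertical axis) for each tested gene of 4 lists (horizontal axis) at 4, 8 and 24 h, with black bars for medians and a dashed line for the median of all genes tested. The medians of the 44 members are -0.46, -0.38 and 0.33, and those of 32 DNA replication genes are -0.05, 0.13 and 0.19.

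DNA replication genes act in S phase. Of 32 tested, 14 fell and 7 rose at 4 h, 17 rose and 6 fell at 8 h, and 20 rose and 2 fell at 24 h, so that their median was above 0 at 8 h while that of the mitotic members was below. The replicative helicase subunit Mcm6 had log2 fold changes of -0.11, -0.13 and -0.34. Of 15 G1 cyclins and CDK inhibitors, 6 rose and 4 fell at 4 h, 7 rose and 5 fell at 8 h, and 5 rose and 7 fell at 24 h. Beside both lists, 28.6% of all genes tested rose and 34.2% fell at 4 h. These shares were 32.4% and 38.4% at 8 h, and 35.9% and 37.9% at 24 h. Cyclin D1 (Ccnd1) had log2 fold changes of 2.15, 3.18 and 3.39 and the CDK4 and CDK6 inhibitor Cdkn2b (p15) had -1.26, -1.74 and -1.34. Whether the lists differed from one another was not tested.

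The scaling of libraries bears on counts over all genes. With library size alone, 3242 genes were higher and 6495 lower at 4 h, against 4308 and 5152 with TMM factors. For vehicle from 8 to 24 h the split was 2844 higher and 4976 lower, against 3839 and 3575, and for FGF6 from 4 to 8 h it was 4666 and 2882, against 3636 and 3623.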

How the data were processed

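The authors aligned RNA-seq reads of 18 libraries to GRCm38 with STAR and assigned them to genes with featureCounts of the Subread package, and they deposited 1 table of raw counts per gene without normalization. Versions, strand setting and the handling of multimapping reads are not given in the sources used here. Samples were grouped by their titles. Identifiers were matched to GENCODE release M21 (98.5% of 48023 matched).

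From the deposited counts, edgeR 4.0.16 in R 4.3.3 kept 15071 genes with filterByExpr. TMM factors were applied, and a quasi-likelihood model with 1 mean per group and no covariates was fitted to the 18 libraries. Benjamini-Hochberg adjustment covered all genes tested, and SE is the one implied by the F statistic. CPM use TMM-scaled totals of tested genes, and 3 counts correspond to 0.0905 to 0.126 CPM. The fit was tested on simulated data with known changes between FGF6 and vehicle at 24 h. It recovered 75 of 100 changes of 0.5 and 91 of 100 changes of 1 on the log2 scale, with 4 false calls. The simulation gave all genes the same dispersion and changed far fewer genes than were called in the data. Alternatives were DESeq2 1.42.0, limma 3.58.1 with voom, other scalings, filters and thresholds, the replicate number as a block, and leaving out each library. Per-library values are given for the 2 most abundant members of each role, for Mki67, Cdk1, Ccnb1, Top2a, Foxm1 and Plk1, for the 2 largest called changes in each direction at each time, and for members called against the majority at 24 h. The members and all lists were chosen with earlier results of these data known. Some genes of the comparison lists are not reported here by name.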

Additional observations from a re-analysis of the deposited data

Results flagged for a closer look

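A difference in the FGF6 effect between time points, tested as an interaction in edgeR, was found from 8 to 24 h in 44 of 44 members. Over that step 22.6% of all genes tested moved upward and 22.5% downward. From 4 to 8 h such a difference was found in 13 of 44 members. There 15.5% of all genes tested moved upward and 15.1% downward, so that the count of 13 is near the background. Of the members, 29 were called lower at 8 h and higher at 24 h with a called difference between these effects. The share of all genes with that pattern was not counted. The differences from 8 to 24 h on the log2 scale reached 1.35 for Bub1 and 1.10 for Ccnb2, and were smallest for Bub3 (0.21) and Cdc20 (0.28). Single outlying values were not tested in groups of 3 libraries, but Veh 24 h replicate 3 stood apart over the genes as a whole, and without it the effect still moved upward from 8 to 24 h in 44 members.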

How the results depend on the processing

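The numbers of members called lower at 4 h (40 to 41), lower at 8 h (38 in each case) and higher at 24 h (32 to 36) changed little when each library was left out in turn, and the 44 upward shifts of the FGF6 effect from 8 to 24 h were called in each such fit. Requiring at least 1.5-fold as well left 0 higher and 10 lower at 4 h, 0 higher and 10 lower at 8 h, 4 higher and 0 lower at 24 h, 0 in either direction for the change of effect from 4 to 8 h, 12 higher for vehicle from 4 to 8 h, 0 in either direction for vehicle from 8 to 24 h, and 19 higher for FGF6 from 4 to 8 h. With library size alone, 0 members were higher at 4 h, the change of effect from 4 to 8 h was upward in 14 and downward in 1, and vehicle from 8 to 24 h had 5 higher and 19 lower, with a median of -0.039. DESeq2 called 2 higher at 8 h, and 2 downward for the change of effect from 4 to 8 h, as did upper-quartile factors (2) and median-of-ratios factors (2). That count ranged from 2 to 5 when a library was left out. An adjusted p under 0.25, the threshold of the study's methods, gave 16 upward and 7 downward for that change, and 17 lower for vehicle from 8 to 24 h. For vehicle from 8 to 24 h, upper-quartile factors gave 8 higher and 18 lower, no filter on low counts gave 8 higher, and at least 10 counts in every library gave 16 lower. The cause of these moves was not tested. Shares of all genes at 1.5-fold and at an adjusted p under 0.25 were not counted.

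Values that changed sign belonged to members not called in the comparison with TMM factors, of which Ccnf at 4 h was called lower with library size alone. With library size alone and with upper-quartile factors in turn, Ccnf was -0.089 and -0.045 at 4 h and -0.046 and -0.027 at 8 h, Anln was -0.036 and -0.017 at 8 h, Espl1 was -0.046 and -0.027 at 8 h, and Spc25 was -0.00138 and -0.00885 at 24 h. Spc25 at 24 h was also -0.00239 with no filter and -0.00791 with at least 10 counts in every library. Cdk1 at 8 h was 0.0025 with DESeq2 and 0.00225 with median-of-ratios factors. Leaving out 1 library gave ranges of -0.018 to 0.056 for Ccnf at 4 h, -0.062 to 0.00904 for Smc2 at 4 h, -0.011 to 0.042 for Ccnf at 8 h, -0.036 to 0.072 for Espl1 at 8 h and -0.034 to 0.045 for Spc25 at 24 h.

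The labels do not say whether same-numbered vehicle and FGF6 libraries were paired. Deviations of libraries with the same number from their group means correlated at -0.101 to 0.102 over 11342 genes. Since the spread between libraries may be technical, these correlations cannot show whether the libraries were paired. With the replicate block, 41 members were lower at 4 h, 38 lower at 8 h and 35 higher at 24 h, and 11 were lower for vehicle from 8 to 24 h.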
